A study of Arabidopsis thaliana with 16 samples.

Results

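The comparison described here asks how the transcriptome of a triploid *Arabidopsis thaliana* seed differs when the pollen brings no functional copy of the MADS-box genes *PHERES1* (*PHE1*) and *PHERES2* (*PHE2*). It covers 4 of the 16 samples of the series and 4 of its 6 RNA-seq libraries. Whole seeds were taken 6 days after pollination (DAP). The mother was in each case a L*er* plant with the *pistillata* mutation *pi-1*, which makes no functional stamens and so cannot self. The pollen donor was Col carrying *osd1* (allele *osd1-3*) in one cross, named *osd1* below, and Col carrying *osd1*, *phe1* and *phe2* in the other, named *phe1 phe2 osd1*. Both pollen donors carried *osd1*, a mutant that often forms diploid gametes, so the seeds of both crosses are taken here as triploid. Ploidy was not measured in these libraries. The wild-type cross (wt), with Col pollen and diploid seeds, is given for reference. Each cross had 2 replicate libraries.

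A few features of the material limit these groups as a model. *PHE1* was edited with CRISPR/Cas9 in 1 selected line with a T-DNA insertion in *PHE2*, and the edit left a premature stop codon. A stop codon need not remove a transcript, so reads of the mutant allele may be counted. The mother kept wild-type copies of both genes, so the loss was paternal, and RPKM values do not tell the 2 parental alleles apart. Each library held whole seeds with embryo, endosperm and maternal seed coat. In such samples, fewer cells of a type and less RNA per cell cannot be told apart.

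In flowering plants a second fertilization gives rise to the endosperm, the tissue that feeds the embryo. In *Arabidopsis* the endosperm first grows as a syncytium and later forms cell walls, a step called cellularization. When the father contributes extra genomes, the endosperm keeps dividing without cell walls and the seed usually dies, which is known as the triploid block. PHE1 and PHE2 are type I MADS-box transcription factors of the Mγ group, made early in the endosperm. *PHE1* is a paternally expressed gene (PEG), meaning that its transcripts come mostly from the allele brought by the pollen.

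Genes were described where the mean RPKM (reads per kilobase of gene, scaled to the mapped reads of the library) reached 0.5 in at least 1 of the triploid crosses, which held for 19517 of the 27206 genes in the table. A gene was counted as separated when both libraries of one cross lay above both of the other on the scale of log2(RPKM + 0.5), and when the gap between the crosses was larger than the larger difference between replicates. This gave 1016 genes, 576 higher in *phe1 phe2 osd1* (2.95% of the genes tested) and 440 lower (2.25%). Without the second condition, the libraries did not overlap for 2448 genes on the higher side (12.5%) and 1985 on the lower side (10.2%). Because the rule itself chose these genes by their values in this comparison, the values below describe them and are not evidence that the crosses differ.

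Tests across all genes found little. The rank product over the 4 pairs of libraries, the method of the study, gave a one-sided p under 0.05 for 864 genes on the higher side (4.43%) and 840 on the lower side (4.3%), and after Benjamini-Hochberg adjustment for 12 and 1. With limma on log2(RPKM + 0.5), 0 genes had an adjusted p under 0.05 in either direction, while 336 genes (1.72%) on the higher side and 191 (0.979%) on the lower side had an unadjusted p under 0.05. Leaving out a library of a triploid cross leaves no spread between the replicates of that cross, so limma calls from such fits are not used in these results. Their range is given only where the processing settings are compared. The words higher and lower below therefore mean separated by the rule, unless a test is named.

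The libraries of the 2 triploid crosses were as similar between crosses as within them. Across the tested genes, Pearson's r of log2(RPKM + 0.5) was 0.958 between the *osd1* replicates and 0.971 between the *phe1 phe2 osd1* replicates, against 0.955 to 0.980 between the crosses. *phe1 phe2 osd1* replicate 1 was closer to *osd1* replicate 2 (r = 0.980) than to its own replicate. Some genes differed several-fold between the *osd1* replicates. *MUM4*, a seed coat gene of mucilage pectin synthesis chosen after its values were seen, had 57.0 and 341 RPKM in the *osd1* replicates and 173 and 319 in *phe1 phe2 osd1*. The read depth, estimated from the spacing of low RPKM values, was 16.2 to 18.16 M reads per library.

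The separated genes differed by modest amounts. The median size of the log2 fold change was 0.29 on the higher side, a 1.23-fold difference, and 0.31 on the lower side, a 1.24-fold difference. A log2 fold change of at least 1 in size was seen for 33 genes on the higher side and 30 on the lower side. Of those, 7 and 6 had a mean of at least 5 RPKM in the cross where they were higher. The plot of fold change against expression level shows the few abundant genes that stand out.

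**Figure D1:**
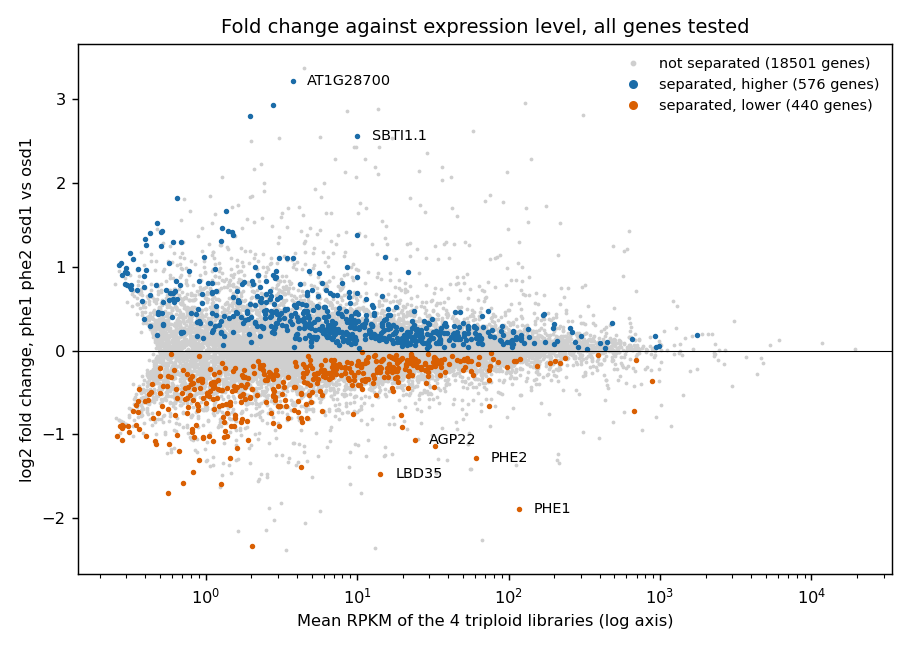
Each point is 1 of 19517 genes, with the mean RPKM of the 4 triploid libraries on a log axis and the log2 fold change of *phe1 phe2 osd1* vs. *osd1* on the vertical axis. The 576 separated genes on the higher side are blue and the 440 on the lower side are orange. *PHE1* and *PHE2* lie lowest among the separated genes of their expression level, with log2 fold changes of -1.90 and -1.28.

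At the edge of the rule, the gap and the replicate difference were nearly equal. Just inside on the higher side was AT5G38510, with 4.80 and 4.81 RPKM in *osd1* versus 5.46 and 6.19 in *phe1 phe2 osd1*. Just outside was AT3G49910, with 389 and 420 RPKM in *osd1* compared with 454 and 486 in *phe1 phe2 osd1*. On the lower side, *NAC016* was just inside, with 11.9 and 12.2 RPKM in *osd1* versus 10.6 and 9.34 in *phe1 phe2 osd1*. *HEXO2* was just outside, with 18.4 and 16.7 against 15.1 and 15.0 RPKM.

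The genes mutated in the pollen donor were lower in *phe1 phe2 osd1* but were not lost. *PHE1* (AT1G65330, chromosome 1, 24266257 to 24267336, reverse strand) had 200 and 169 RPKM in *osd1* compared with 49.0 and 49.1 RPKM in *phe1 phe2 osd1*. The wt libraries had 2.92 and 3.10 RPKM. The *phe1 phe2 osd1* replicates were thus nearly equal, below both *osd1* libraries and well above wt. The mean in *phe1 phe2 osd1* was 0.266 times that in *osd1*, and limma gave a log2 fold change of -1.90 with SE 0.13 and an adjusted p of 0.0904. With only the triploid crosses in the limma fit, the adjusted p was 0.948. No other gene had an adjusted p as low in the fit with all libraries. *PHE2* (AT1G65300, chromosome 1, 24254929 to 24255857, forward strand) lies next to *PHE1* and encodes a close relative of it. It had 81.8 and 90.14 RPKM in *osd1*, 37.8 and 32.5 in *phe1 phe2 osd1*, and 3.08 and 2.98 in wt. Its mean in *phe1 phe2 osd1* was 0.409 times that in *osd1* (log2 fold change -1.28, SE 0.13, adjusted p = 0.397 from limma). Reads of these near-identical genes may have been exchanged in mapping. Transcripts of the maternal alleles and of the mutant paternal ones cannot be told apart, so these levels are only a partial check of the labels.

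*OSD1* (AT3G57860), an inhibitor of the anaphase-promoting complex that allows the second meiotic division, was mutated in both pollen donors. It had 7.19 and 6.82 RPKM in wt. It had 1.56 and 1.41 RPKM in *osd1* versus 0.861 and 1.03 in *phe1 phe2 osd1*. Both triploid crosses were thus below wt, and the gap between them was small (log2 fold change -0.46, SE 0.21).

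PHE1 binding was measured separately, by ChIP-seq of PHE1–GFP at 2 DAP, in siliques of a Col line carrying *PHE1::PHE1–GFP* and labelled wt. These siliques did not come from the triploid crosses. The authors' peak lists of 2 replicates shared 2510 regions. A gene was taken as bound here when the centre of a shared region lay between 1500 bp upstream and 500 bp downstream of its transcription start site (TSS). This measure was not used to choose the separated genes. Among the 14026 tested genes with a mean of at least 5 RPKM in a triploid cross, 1489 were bound (10.6%). Of the separated genes at that level, 28 of 379 on the higher side (7.39%) and 34 of 239 on the lower side (14.2%) were bound. Of the 12 with the largest differences on the lower side, 6 were bound (50%), namely *PHE1*, *PHE2*, *LBD35*, AT3G46860, *AGP22* and AT2G46690. Without *PHE1* and *PHE2*, which the pollen donor carried as mutants, 4 of the other 10 were bound (40%). The next 12 on that side held 2 bound genes, and the remaining 215 held 26 (12.1%). Of the 12 with the largest differences on the higher side, only *CDR1* was bound, and it lay at the edge of the rule. Its gap was 0.587 on the log2 scale, against a replicate difference of 0.586. Bound genes were also counted where the libraries did not overlap, at 5 RPKM or more and a log2 fold change of at least 1 in size. Of these, 9 of 61 on the higher side (14.8%) and 13 of 31 on the lower side (41.9%) were bound. These shares are counts with no test. The 6 of 12 rested on the libraries used, with 1 bound gene among the 12 without *osd1* replicate 1, 3 without *osd1* replicate 2, 3 without *phe1 phe2 osd1* replicate 1 and 7 without *phe1 phe2 osd1* replicate 2.

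**Figure D2:**
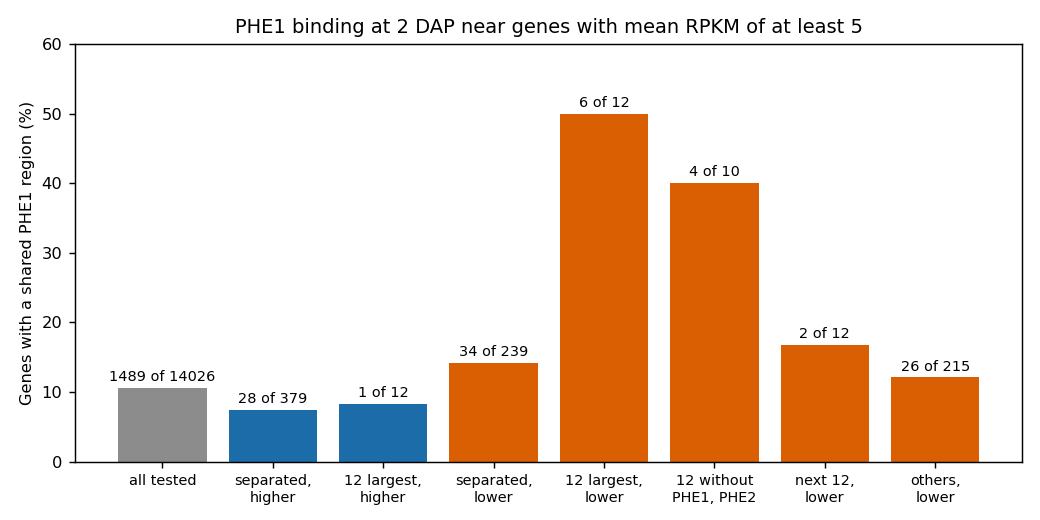
Bars give the percent of genes with a shared PHE1 region near their TSS, with the counts above them, for all tested genes with a mean of at least 5 RPKM in a triploid cross and for the separated genes among them. The 12 genes with the largest differences on the lower side hold 6 bound genes, or 4 of 10 without *PHE1* and *PHE2*, against 10.6% of the genes tested.

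Over all separated genes without a minimum of 5 RPKM, 37 of 576 on the higher side were bound (6.42%) and 47 of 440 on the lower side (10.7%), against 1865 of 19517 genes tested (9.56%). In the target list of the study, 1512 genes were tested, of which 32 were separated on the higher side and 37 on the lower side, 2.12% and 2.45%. Among all genes these shares were 2.95% and 2.25%. The rank product had a p under 0.05 for 68 targets on the higher side and 78 on the lower side. Among all genes it did so for 4.43% and 4.3%. The median log2 fold change of the targets was -0.01, against 0.01 for all genes. The study divides many of the targets into 3 clusters by their expression in developing seeds. Separated genes on the higher and lower sides numbered 3 and 6 of the 212 tested in cluster 1 (1.42% and 2.83%). They numbered 4 and 8 of 351 in cluster 2 (1.14% and 2.28%), and 19 and 13 of 679 in cluster 3 (2.80% and 1.91%). The rank product had a p under 0.05 for 20 and 22 genes in cluster 1, 9 and 4 in cluster 2, and 17 and 23 in cluster 3.

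The shared regions of 4 bound genes on the lower side are shown because these genes were among the largest or most abundant differences on that side and because they hold a sequence of the kind MADS-box proteins are known to contact. Each stretch is read from the TAIR10 genome on the strand of its gene, up to 100 bases on either side of the centre of the shared region and upstream of the TSS. Capitals mark MEF2-type CArG-boxes, here a C, a run of 8 bases that are A or T, and a G, a pattern that reads the same on both strands. The stretches come from chr1:24267535-24267735 for *PHE1*, chr5:14027996-14028196 for *LBD35*, chr3:17260084-17260233 for AT3G46860 and chr5:25304542-25304742 for AT5G63087. AT5G63087 lies outside the 12 and was chosen after its values were seen.
PHE1: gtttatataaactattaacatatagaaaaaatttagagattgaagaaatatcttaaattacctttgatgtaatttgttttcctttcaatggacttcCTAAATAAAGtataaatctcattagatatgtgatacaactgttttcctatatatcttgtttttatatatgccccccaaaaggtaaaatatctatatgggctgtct
LBD35: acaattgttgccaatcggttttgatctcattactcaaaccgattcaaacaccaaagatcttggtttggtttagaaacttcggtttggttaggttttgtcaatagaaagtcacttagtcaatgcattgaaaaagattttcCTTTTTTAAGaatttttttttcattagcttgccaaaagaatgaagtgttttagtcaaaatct
AT3G46860: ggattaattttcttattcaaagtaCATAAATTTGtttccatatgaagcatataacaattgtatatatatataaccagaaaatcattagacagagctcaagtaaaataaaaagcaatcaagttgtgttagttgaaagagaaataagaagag
AT5G63087: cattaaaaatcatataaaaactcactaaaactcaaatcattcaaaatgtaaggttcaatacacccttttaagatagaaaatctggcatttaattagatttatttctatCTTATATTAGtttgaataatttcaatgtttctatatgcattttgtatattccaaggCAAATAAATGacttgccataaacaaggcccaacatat
The boxes marked begin at -303 bp from the TSS for *PHE1*, -547 bp for *LBD35*, -126 bp for AT3G46860, and -100 and -44 bp for AT5G63087. The whole shared region of *PHE1* held 2 boxes, 1 of them in the stretch shown. AT2G46690, with 1 box in its shared regions, is not shown. Of the 6 bound genes among the 12, 4 had such a box somewhere in their shared regions. Of all 2510 shared regions, with a median width of 345 bp, 1123 had one (44.7%). The 2 counts are not alike, because *LBD35* had 2 shared regions and AT2G46690 had 4. The regions of *PHE1* and *PHE2* were also wider than most, at 1050 and 1124 bp. The stricter SRF-type CArG-box was found in 289 of all shared regions (11.5%) and in 0 regions of the 6 genes. These matches describe the letters only and do not show that PHE1 sits on them.

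Transcription factors and cell-surface proteins were among the bound genes that were lower. *LBD35* (AT5G35900, chromosome 5, 14028682 to 14029426, forward strand) encodes a LOB-domain transcription factor, of a family found only in plants. Its level was 25.4 and 17.2 RPKM in *osd1*, 7.78 and 6.69 in *phe1 phe2 osd1*, and 0.329 and 0.912 in wt. The triploid crosses did not overlap, and the *osd1* mean was 2.94 times the *phe1 phe2 osd1* mean (log2 fold change -1.47, SE 0.32, adjusted p = 1.00 from limma). Besides the region shown above, a second shared region lay further upstream. *AGP22* (AT5G53250, chromosome 5, 21603569 to 21604414) encodes an arabinogalactan protein, a heavily glycosylated protein of the cell surface. It had 38.7 and 26.9 RPKM in *osd1* compared with 14.4 and 15.9 in *phe1 phe2 osd1*, with 2.76 and 4.21 in wt. Its mean in *osd1* was 2.17 times that in *phe1 phe2 osd1*, and its shared region was centred at -236 bp from the TSS.

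AT3G46860 (chromosome 3, 17260234 to 17260599) encodes a serine protease inhibitor of the potato inhibitor I type. It had 47.8 and 41.7 RPKM in *osd1*, 25.4 and 15.7 in *phe1 phe2 osd1*, and 0.238 and 0.878 in wt, and its *osd1* mean was 2.18 times its *phe1 phe2 osd1* mean. Its shared region was centred at -50 bp. AT5G63085 and AT5G63087 are neighbouring genes on chromosome 5 and encode thionins, small cysteine-rich peptides best known from defence. AT5G63085 had 21.6 and 30.4 RPKM in *osd1* versus 14.7 and 12.3 in *phe1 phe2 osd1*. AT5G63087 had 894 and 789 RPKM in *osd1*, 566 and 460 in *phe1 phe2 osd1*, and 68.5 and 80.5 in wt. Its log2 fold change was -0.72 (SE 0.16, unadjusted p = 0.00351 and adjusted p = 1.00 from limma). Only AT5G63087 of the pair was bound, with a region centred at -108 bp. A further cysteine-rich peptide gene, AT5G19172, chosen after its values were seen, was bound at -173 bp and had 82.5 and 101 RPKM in *osd1* against 63.4 and 52.1 in *phe1 phe2 osd1*.

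The remaining bound gene of the 12, AT2G46690, encodes a SAUR-like protein of the auxin-responsive family and had 4 shared regions. It had 12.6 and 11.2 RPKM in *osd1* compared with 6.59 and 7.05 in *phe1 phe2 osd1*. In wt it had 16.5 and 22.4 RPKM, above both triploid crosses. Unlike *LBD35*, *AGP22* and AT3G46860, its level in *osd1* thus did not exceed wt.

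The unbound genes among the 12 were of mixed kinds. AT2G26865, with no described product, was listed at 0 in both wt libraries and had 7.20 and 5.65 RPKM in *osd1* versus 2.44 and 1.85 in *phe1 phe2 osd1*. *NAC097*, of the NAC family of transcription factors, had 5.43 and 5.97 RPKM in *osd1* compared with 2.48 and 3.44 in *phe1 phe2 osd1*. *LHY*, a morning transcription factor of the circadian clock, had 24.2 and 24.9 RPKM in *osd1* versus 15.4 and 13.1 in *phe1 phe2 osd1*. The wt replicates of *LHY*, at 12.0 and 27.4 RPKM, spanned the levels of both triploid crosses. It was the only one of 14 tested clock genes that was separated (7.14%, against 2.25% of all genes). AT3G46020, an RNA-binding protein gene, had 6.02 and 6.16 RPKM in *osd1* compared with 3.42 and 3.14 in *phe1 phe2 osd1*, and AT4G28290, uncharacterized, had 6.41 and 4.76 against 3.27 and 2.69.

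**Figure D3:**
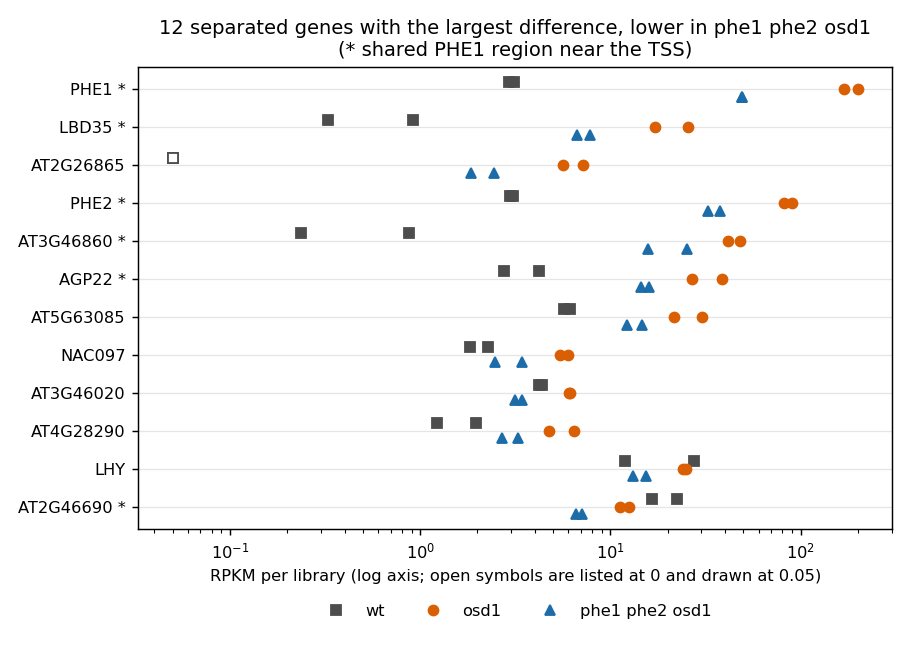
RPKM of each library on a log axis for the 12 separated genes with the largest differences on the lower side and a mean of at least 5 RPKM in *osd1*, with wt as squares, *osd1* as circles, *phe1 phe2 osd1* as triangles and open symbols for values listed at 0. An asterisk marks a shared PHE1 region near the TSS, as for *PHE1*, where *osd1* had 200 and 169 RPKM and *phe1 phe2 osd1* 49.0 and 49.1.

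On the higher side, the largest differences were in genes that were abundant in wt and nearly absent from *osd1*. AT1G28700 (chromosome 1, 10083500 to 10085030) encodes a nucleotide-diphospho-sugar transferase, a family of enzymes that transfer sugars. It had 0.376 and 0.0854 RPKM in *osd1*, 3.32 and 11.2 in *phe1 phe2 osd1*, and 181 and 146 in wt. AT5G25330 (chromosome 5, 8791513 to 8792813), of the Core-2/I-branching family of glycosyltransferases, was listed at 0 in *osd1* replicate 1 and had 0.492 RPKM in replicate 2. It had 3.16 and 7.41 RPKM in *phe1 phe2 osd1* and 162 and 124 in wt. *SBTI1.1* (AT1G01900, chromosome 1, 310169 to 313130), a subtilase, which is a serine protease, had 1.66 and 3.38 RPKM in *osd1*, 11.6 and 23.5 in *phe1 phe2 osd1*, and 486 and 382 in wt. All 3 genes stayed far below wt in both triploid crosses, and *phe1 phe2 osd1* replicate 2 was the higher replicate for each. Their log2 fold changes were 3.22 (SE 0.52), 2.93 (SE 0.46) and 2.56 (SE 0.40), each with an adjusted p of 1.00 from limma.

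*CYP76G1* (AT3G52970), a cytochrome P450 gene chosen after its values were seen, had the same order of levels below the minimum of 5 RPKM. It had 0.0665 and 0.136 RPKM in *osd1*, 2.81 and 4.80 in *phe1 phe2 osd1*, and 107 and 86.5 in wt. Its log2 fold change was 2.80 (SE 0.27), with an adjusted p of 0.356 from limma with all libraries.

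Further genes of the 12 on the higher side were also most abundant in wt. AT4G04460, an aspartyl protease with a saposin-like domain, had 14.7 and 14.8 RPKM in *osd1*, 27.4 and 30.2 in *phe1 phe2 osd1*, and 452 and 394 in wt. Its replicates were close in both triploid crosses, and its log2 fold change was 0.94 (SE 0.12, unadjusted p = 0.000191 and adjusted p = 0.933 from limma). AT5G22580, with a stress-responsive A/B barrel domain, had 4.83 and 5.45 RPKM in *osd1*, 10.4 and 19.2 in *phe1 phe2 osd1*, and 197 and 191 in wt. AT5G50740, a heavy metal transport protein, had 4.40 and 6.77 RPKM in *osd1*, 11.4 and 11.5 in *phe1 phe2 osd1*, and 65.6 and 79.1 in wt. AT4G10630, a glutaredoxin, had 6.28 and 7.47 RPKM in *osd1* versus 12.3 and 13.8 in *phe1 phe2 osd1*, against 68.8 and 73.3 in wt. AT5G56120, AT4G15140 and AT3G14340 were between 1.82 and 2.05 times as high in *phe1 phe2 osd1* as in *osd1*.

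A pair of the 12 went beyond wt. *CDR1* (AT5G33340), an aspartyl protease known from disease resistance and the one bound gene here, with a region centred at -429 bp, had 11.6 and 7.56 RPKM in *osd1* compared with 17.7 and 24.6 in *phe1 phe2 osd1*, against 3.34 and 1.90 in wt. AT4G34780, another SAUR-like gene, had 1.59 and 2.90 RPKM in *osd1*, 5.23 and 5.29 in *phe1 phe2 osd1*, and 0.764 and 0.705 in wt. For both, loss of paternal *PHE1* and *PHE2* went with a level further from wt than in *osd1*.

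**Figure D4:**
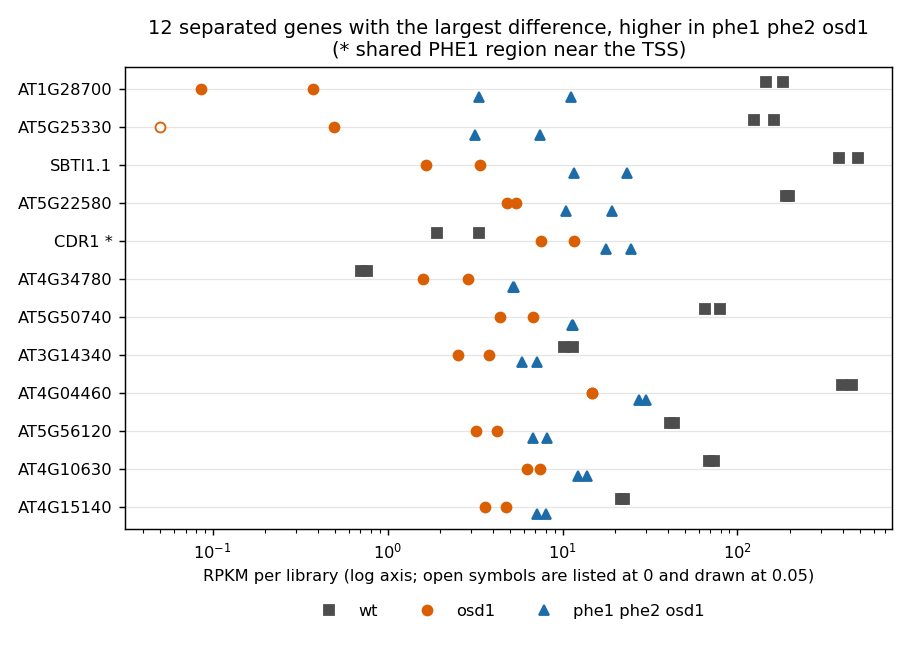
RPKM of each library on a log axis for the 12 separated genes with the largest differences on the higher side and a mean of at least 5 RPKM in *phe1 phe2 osd1*, with wt as squares, *osd1* as circles and *phe1 phe2 osd1* as triangles. *SBTI1.1* shows the pattern of the first genes, with 1.66 and 3.38 RPKM in *osd1*, 11.6 and 23.5 in *phe1 phe2 osd1*, and 486 and 382 in wt.

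Other PHE1 targets on the higher side differed less. AT3G49520, an F-box protein gene, had 3.95 and 3.04 RPKM in *osd1* versus 6.36 and 5.30 in *phe1 phe2 osd1*. *ASPGB1*, an asparaginase that releases ammonium from asparagine, had 13.4 and 14.7 RPKM in *osd1* compared with 19.7 and 18.3 in *phe1 phe2 osd1*. AT5G24355, uncharacterized, had 39.4 and 34.9 against 49.6 and 52.8 RPKM, and AT4G39600, a kelch repeat protein gene, had 3.86 and 3.74 against 5.93 and 5.06.

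Type I MADS-box relatives of *PHE1* were counted beside all genes, of which 2.95% were higher and 2.25% lower. Of 9 other Mγ genes tested, 0 were separated, and their median log2 fold change was -0.09. *AGL96* had the lowest, with 119 and 45.6 RPKM in *osd1* versus 35.4 and 21.1 in *phe1 phe2 osd1*, so both *phe1 phe2 osd1* libraries lay below both of *osd1*. The gap between the crosses, 0.36 on the log2 scale, was smaller than the difference of 1.37 between the *osd1* replicates. *AGL36*, a maternally expressed Mγ gene, had 11.9 and 3.89 RPKM in *osd1* compared with 5.95 and 20.2 in *phe1 phe2 osd1*. Of 11 Mα genes tested, 2 were separated, both on the higher side. The largest difference among the Mα genes was that of *AGL57*, with 5.28 and 2.70 RPKM in *osd1* against 0.650 and 1.49 in *phe1 phe2 osd1* (log2 fold change -1.51, SE 0.41). Its libraries did not overlap, but it was not separated. *AGL91* had 35.4 and 34.2 RPKM in *osd1* versus 45.3 and 40.7 in *phe1 phe2 osd1*, and *AGL102* had 44.9 and 43.2 against 54.5 and 56.8. *AGL91* was bound by PHE1, with a region centred at -330 bp, and *AGL102* was not. *AGL62*, an Mα gene known to hold back cellularization, overlapped between the crosses, with 20.8 and 10.4 RPKM in *osd1* compared with 11.8 and 27.3 in *phe1 phe2 osd1*.

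Genes of endosperm growth and of Polycomb repression each had 1 separated member, on the lower side. Of 15 endosperm growth regulators tested, only *IKU2*, a receptor kinase that promotes endosperm growth, was separated (6.67%, against 2.25% of all genes). It was low throughout, with 0.509 and 0.689 RPKM in *osd1* versus 0.251 and 0.206 in *phe1 phe2 osd1*. *CKX2*, a cytokinin oxidase of the same pathway, had 191 and 65.4 RPKM in *osd1* compared with 82.6 and 50.5 in *phe1 phe2 osd1*, with overlapping libraries. The auxin gene *YUC10* also overlapped, at 22.6 and 11.9 against 7.24 and 23.2 RPKM. Of 8 genes of Polycomb repressive complex 2, which deposits the repressive mark H3K27me3, *CLF* was separated (12.5%, against 2.25% of all genes). It was lower by a log2 fold change of -0.15 (SE 0.17). None of 6 suppressors of the triploid block was separated, with 0 on either side. *ADM* (AT4G11940), a PEG whose loss rescues triploid seeds, had 6.86 and 3.15 RPKM in *osd1* versus 6.41 and 8.68 in *phe1 phe2 osd1*.

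Cytokinesis and mitosis genes lay mostly a little higher in *phe1 phe2 osd1*. Of 22 genes tested, 18 had a log2 fold change above 0 and 11 were higher in all 4 pairs of libraries, against 12.5% of all genes. Only *CYCB1;1* was separated (4.55%, against 2.95% of all genes). The median log2 fold change was 0.20, against 0.01 over all genes. *CYCB1;1*, a mitotic cyclin, had 4.81 and 5.28 RPKM in *osd1* compared with 5.99 and 6.23 in *phe1 phe2 osd1*, against 15.1 and 14.5 in wt. *KNOLLE* (*KN*, AT1G08560), the syntaxin that fuses membranes into the new cell plate, had 13.99 and 41.8 RPKM in *osd1*, 56.2 and 62.1 in *phe1 phe2 osd1*, and 372 and 387 in wt. *osd1* replicate 1 was far below replicate 2 for *KN*, so that the gap between the crosses was smaller than the difference between those replicates. *KN* was bound by PHE1, with a region centred at -1458 bp. Its adjusted p from limma was 1.00 with all libraries. *EDE1*, a microtubule protein needed for endosperm cellularization, had 3.42 and 3.0002 RPKM in *osd1* versus 4.88 and 4.05 in *phe1 phe2 osd1*. The count of 11 can only stay or rise when a library is left out, because fewer pairs remain. It was 18 without *phe1 phe2 osd1* replicate 2, with no share of all genes for comparison.

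Seed maturation and storage genes lay mostly higher in *phe1 phe2 osd1*, with large differences between replicates. Of 14 genes tested, 13 had a log2 fold change above 0, the median was 0.72, and the rank product had a p under 0.05 for 7, against 4.43% of all genes. The number separated was 0, and 4 were higher in all 4 pairs, against 12.5% of all genes. *L1L* (AT5G47670), a LEC1-like subunit of a transcription factor of seed filling, had 1.49 and 2.99 RPKM in *osd1*, 3.99 and 11.2 in *phe1 phe2 osd1*, and 85.9 and 87.8 in wt. *OLEO3*, an oil body protein gene, had 15.1 and 34.3 RPKM in *osd1* compared with 29.0 and 51.5 in *phe1 phe2 osd1*, against 474 and 404 in wt. *FUS3*, a master regulator of maturation, had 1.81 and 3.12 RPKM in *osd1* versus 3.95 and 4.36 in *phe1 phe2 osd1*. Summed over the list, *osd1* replicate 1 had 57.7 RPKM and replicate 2 had 125, while the *phe1 phe2 osd1* replicates had 111 and 165. The wt sums were 1061 and 1364 RPKM, so both triploid crosses were far below wt. The count of 4 can also only stay or rise when a library is left out. It was 11 without *osd1* replicate 2 and 11 without *phe1 phe2 osd1* replicate 1, with no share of all genes for comparison.

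Hormone genes were mixed. *GA20OX3*, a gibberellin synthesis gene chosen after its values were seen, had 495 and 418 RPKM in wt. It had 1.49 and 6.70 RPKM in *osd1* compared with 13.8 and 23.3 in *phe1 phe2 osd1*. Its libraries did not overlap, but the *osd1* replicates differed by more than the gap between the crosses. Of 9 gibberellin oxidases tested, only *GA2OX4*, which inactivates gibberellin, was separated (11.1%, against 2.25% lower among all genes). *GA2OX4* had 3.001 and 2.95 RPKM in *osd1* versus 2.22 and 2.55 in *phe1 phe2 osd1*. Of 9 auxin synthesis genes tested, only *YUC1* was separated (11.1%, against 2.95% higher among all genes). *YUC1* had 0.341 and 0.218 against 0.521 and 0.492 RPKM. *AUX1* and *PHB*, an auxin carrier and a homeodomain regulator of leaf and embryo polarity, were both chosen after their values were seen. *AUX1* had 7.43 and 7.60 RPKM in *osd1*, 13.3 and 11.6 in *phe1 phe2 osd1*, and 68.2 and 62.1 in wt. *PHB* had 5.44 and 5.68 RPKM in *osd1*, 8.76 and 9.50 in *phe1 phe2 osd1*, and 55.0 and 51.8 in wt.

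**Figure D5:**
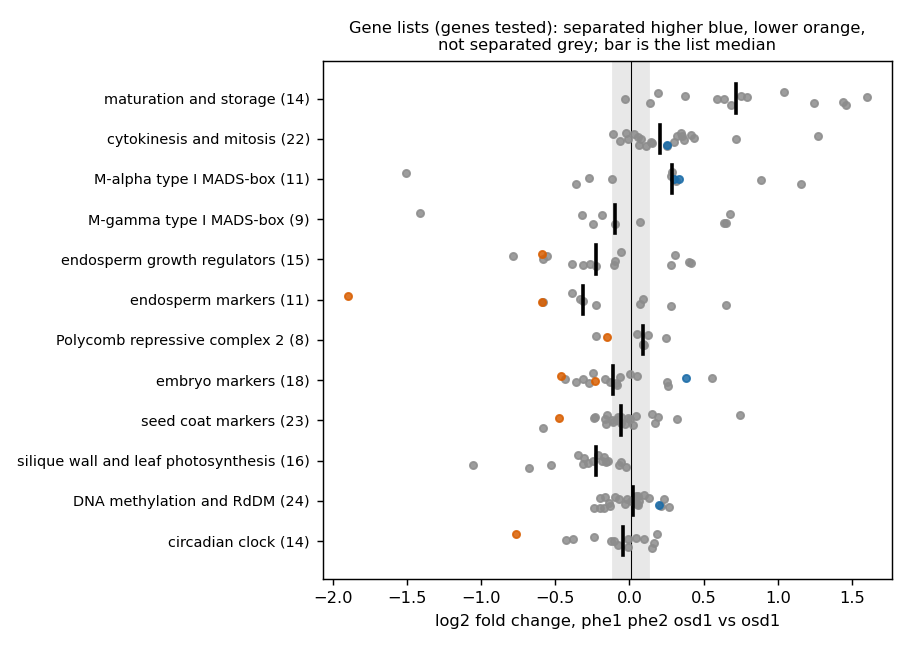
Each point is the log2 fold change of 1 gene in *phe1 phe2 osd1* vs. *osd1*, by gene list, with the number of genes tested in brackets, black bars for list medians and grey shading for the quartiles of all tested genes. The median is 0.72 for maturation and storage genes and 0.20 for cytokinesis and mitosis genes. Separated genes are blue where higher and orange where lower.

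Markers of the seed tissues were summed in each library. The 10 endosperm markers other than *PHE1* summed to 127 and 85.3 RPKM in *osd1* and to 83.9 and 120 in *phe1 phe2 osd1*, with overlapping libraries, against 44.1 and 50.4 in wt. The 23 seed coat markers summed to 6949 and 7100 RPKM in *osd1* compared with 6299 and 6862 in *phe1 phe2 osd1*. Among them only *TT16*, a MADS-box gene of the inner seed coat, was separated (4.35%, against 2.25% lower among all genes). It had 20.8 and 19.4 RPKM in *osd1* versus 15.0 and 13.6 in *phe1 phe2 osd1*. *TT16* was also bound by PHE1, with a region centred at -633 bp. The embryo markers summed to 269 and 300 RPKM in *osd1* and to 293 and 265 in *phe1 phe2 osd1*. Of 18 embryo markers tested, 1 was higher (5.56%, against 2.95% of all genes) and 2 were lower (11.1%, against 2.25%). *WOX9* was higher, at 2.68 and 2.51 RPKM in *osd1* against 3.45 and 3.62 in *phe1 phe2 osd1*. *SHR*, at 12.8 and 12.5 against 9.77 and 8.34, and *WOX2* were lower. All 16 tested photosynthesis genes had a log2 fold change below 0, against 9389 of the 19517 genes tested, but 0 were separated. They were listed with the silique wall genes *FUL* and *IND*, which were under 0.5 RPKM in every library. The photosynthesis genes are thus not read as silique wall here, and the tissue of their transcripts was not measured. The sums over this list were 6176 and 4443 RPKM in *osd1* compared with 5152 and 4349 in *phe1 phe2 osd1*, so the crosses overlapped. The part of these shifts in the gene differences above was not tested.

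Of 144 PEGs tested, 7 were higher (4.86%, against 2.95% of all genes) and 2 were lower (1.39%, against 2.25%), one of them *PHE1*. AT1G11810, an F-box associated protein gene, had 5.89 and 5.35 RPKM in *osd1*, 9.69 and 10.7 in *phe1 phe2 osd1*, and 0.705 and 0.608 in wt. AT5G10950, with a Tudor/PWWP/MBT domain, had 38.7 and 41.5 RPKM in *osd1* versus 53.3 and 57.8 in *phe1 phe2 osd1*, and AT1G20816 had 5.01 and 4.74 against 6.92 and 7.58. *MKK5*, a MAP kinase kinase, was the other lower PEG, at 30.5 and 34.3 against 26.2 and 26.1 RPKM. Of 111 maternally expressed genes tested, 2 were higher (1.80%) and 1 was lower (0.901%). AT5G35120, a MADS-box gene, had 1.40 and 2.33 RPKM in *osd1* compared with 3.76 and 4.22 in *phe1 phe2 osd1*, and AT5G41830 had 2.74 and 3.13 against 5.87 and 5.07. Both were more abundant in wt, at 19.3 and 17.3 RPKM for AT5G35120 and 18.5 and 18.1 for AT5G41830. AT1G55650, an HMG-box gene, was lower, at 7.62 and 7.69 against 6.51 and 5.61 RPKM.

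Families of secreted peptides and cell wall enzymes were counted beside all genes, of which 2.95% were higher and 2.25% lower. Of 63 defensin-like genes of the LCR and SCRL families tested, 1 was higher (1.59%) and 2 were lower (3.17%). The rank product had a p under 0.05 for 11 on the higher side and 9 on the lower side. Among all genes it did so for 4.43% and 4.3%. *LCR73*, bound by PHE1, had 708 and 734 RPKM in *osd1* versus 674 and 663 in *phe1 phe2 osd1*. Of 72 pectin methylesterases and their inhibitors tested, 2 were higher (2.78%) and 1 was lower (1.39%). The rank product had a p under 0.05 for 11 on the higher side and 9 on the lower side here too. *PME3* had 1.32 and 1.71 RPKM in *osd1*, 2.47 and 2.41 in *phe1 phe2 osd1*, and 43.3 and 46.9 in wt.

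Lists of DNA methylation and stress genes held 0 or 1 separated gene each, beside 2.95% higher and 2.25% lower among all genes. Of 24 genes of DNA methylation and its RNA-directed pathway tested, only *NRPD2A*, a subunit shared by RNA polymerases IV and V, was separated, at 16.1 and 16.0 RPKM in *osd1* compared with 18.9 and 18.1 in *phe1 phe2 osd1*. Of 9 heat shock genes, *HSP18.2* was higher (11.1%), and of 8 cold and dehydration genes, *COR15A* was lower (12.5%), both under 2 RPKM. The numbers separated were 0 of 10 hypoxia genes, 0 of 16 wounding genes and 0 of 11 sugar transport genes. The wounding genes summed to 205 and 545 RPKM in the *osd1* replicates and to 380 and 302 in *phe1 phe2 osd1*, which shows a difference between the *osd1* replicates.

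Separated genes were found on every chromosome. They made up 2.70 to 3.48% of the tested genes of each chromosome on the higher side and 1.91 to 2.56% on the lower side. Genes near the mutated loci were counted as well. Within 1 Mb of *PHE1*, 7 of 338 tested genes were higher (2.07%) and 16 were lower (4.73%), *PHE1* and *PHE2* included. The shares were 2.82% and 2.34% on chromosome 1, and 2.95% and 2.25% of all genes, so the window held more lower genes. The reason was not tested. Within 1 Mb of *OSD1*, which both pollen donors lacked, 11 of 426 were higher and 11 were lower (2.58% each).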

How the data were processed

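RNA-seq of whole seeds at 6 DAP covered the wt, *osd1* and *phe1 phe2 osd1* crosses, with 2 libraries each, and PHE1–GFP ChIP-seq covered siliques at 2 DAP. Expression was deposited as RPKM, for which the authors used GFOLD on poly(A) reads mapped with TopHat2 2.1.0 to TAIR10 masked for rRNA genes. RPKM correct for library size and gene length but not for RNA composition. The deposited peak lists give start and end positions only. The authors called them per replicate with MACS2 2.1.1 on Bowtie 1.2.2 alignments. H3K27me3 samples were not analysed here. Per-sample columns left out numbered 0.

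Genes needed a mean of 0.5 RPKM in either triploid cross, and separation was judged on log2(RPKM + 0.5). Fold changes, SE and Benjamini-Hochberg adjusted p were obtained with limma 3.58.1 (R 4.3.3), fitting all 3 crosses with a mean-variance trend. The rank product was coded anew in Python 3.11.15 (numpy 2.4.6, pandas 2.3.3, matplotlib 3.10.9 for plots) with 100 permutations and 0 set to 0.0001, and a minimum RPKM stood in for the minimum number of reads. Scripts were tested on simulated data. With 2 against 2 libraries the smallest p of an exact two-sided test is 0.3333, so none was run. Replicates were described only as biological, so p-values measure the spread between these samples. Depth was estimated from low RPKM values and exon lengths, of which 32.4 to 36.0% came out as whole reads within 0.03, so it is approximate.

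Shared PHE1 regions overlap by at least 1 bp. Names, coordinates and sequences come from RefSeq on TAIR10, which held 26719 of the 27206 genes. The genes named are *PHE1*, *PHE2*, the 12 separated genes per side with the largest fold change and at least 5 RPKM, 5 separated PHE1 targets per side, and up to 3 separated genes per list and side. All others were chosen after their values were seen. The members and lists were chosen with earlier results of these data known. Alternatives were other pseudocounts, minimum RPKM, scaling, fits and separation limits, a replicate block, and each library left out.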

Additional observations from a re-analysis of the deposited data

How the results depend on the processing

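With 2 libraries per cross, the number of replicates limits every count here. Counts of separated genes were within 1.5 times those given under other pseudocounts, minimum RPKM and scaling. Any gap gave 2448 higher and 1985 lower, and a gap over 2 times the replicate difference gave 255 and 182. Leaving out a library, which removes a replicate difference from the rule, gave 2438 to 3466 higher and 1755 to 2892 lower. The limma counts of 0 stayed at 0 under every alternative except without *osd1* replicate 2, so that leaving out a library gave 0 to 58 higher and 0 to 1 lower. The range rests on fits in which a triploid cross had no spread between replicates, so no conclusion is drawn from it. With all libraries, an unadjusted p under 0.05 from limma was reached by 336 genes on the higher side and 191 on the lower side. The rank product ranged from 732 to 1058 higher and from 701 to 987 lower when a library was left out, gave 559 lower at a minimum of 2 RPKM, and after adjustment gave 12 and 1.

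Same-numbered libraries of the triploid crosses deviated from their cross means with a correlation of 0.176 across genes, against -0.00431 and -0.00997 for the pairs with wt. With 2 pairs this does not show pairing. With the replicate number as a block, limma called 0 and 0 genes and the rank product 898 higher and 907 lower.

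The log2 fold change of *PHE1* was -2.02 without *osd1* replicate 2. Leaving out each library gave -2.02 to -1.77 for *PHE1*. None of the 56 genes named by rule changed direction under the alternatives, and with all libraries none of them had an adjusted p under 0.05 from limma. *KN*, *CYP76G1* and *GA20OX3*, chosen after their values were seen, did not reach it with all libraries either.

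Alternatives for the counts of bound genes and of genes higher in all 4 pairs were chosen after seeing the data. Bound genes among the 12 with the largest differences on the lower side numbered 4 to 6 under other settings and 1 to 7 when a library was left out. On the higher side, bound genes among the 12 numbered 0 with a pseudocount of 0.1, either scaling, any gap or the wider gap, and 0 to 2 when a library was left out. Cytokinesis genes higher in every pair numbered 13 to 18 and maturation genes 4 to 11 when a library was left out. With fewer pairs left, these counts can only stay or rise, so a rise carries no weight.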

Other observations

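Genes whose annotated product names a ribosomal protein were chosen as a group after their values were seen. Of 328 tested, 23 were separated on the higher side in *phe1 phe2 osd1* (7.01%, against 2.95% of all genes) and 1 on the lower side. Their median log2 fold change was 0.06, against 0.01 for all genes, and 255 of 328 were above 0. With median-of-ratios scaling 16 were separated on the higher side, and with quantile normalization 23, where the median was 0.04 and that of all genes -0.01. The scaling factors of the triploid libraries ran from 0.981 to 1.01.

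Some bound genes of low level had large differences on the lower side. *SP1L5*, a microtubule-associated protein gene listed at 0 in both wt libraries, had 1.22 and 0.714 RPKM in *osd1* versus 0.267 and 0.0840 in *phe1 phe2 osd1*. AT3G46310, uncharacterized and also listed at 0 in wt, had 1.21 and 1.71 against 0.618 and 0.292 RPKM. *RR23*, a response regulator, had 4.28 and 3.59 RPKM in *osd1* compared with 1.98 and 2.62 in *phe1 phe2 osd1*. On the higher side, the MADS-box gene *AGL53* had 0.197 RPKM in *osd1* replicate 1, was listed at 0 in replicate 2, and had 1.14 and 0.697 RPKM in *phe1 phe2 osd1*. These genes were chosen after their values were seen.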
